A study of Drosophila melanogaster with 25 samples.

Results

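The RNA that came down from Kc cell nuclei with Rb5, an antiserum against the RNA-binding protein Shep, was compared with the RNA of the nuclear extract itself. The comparison used 3 Rb5 precipitates and 6 inputs, chosen by their labels as Kc167 libraries with antibody Shep Rb5 or input. These 9 libraries were listed as 11 samples, since replicate 3 of each group appears under both sequencing machines with the same counts and was used once. They belong to a series of 22 distinct libraries (25 samples) that also holds Kc precipitates with 2 other Shep antisera (Rb6 and Gp01) and with the Su(Hw) antiserum Gp60, and inputs and precipitates of BG3 cells.

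RNA immunoprecipitation followed by sequencing (RIP-seq) shows which transcripts travel with a protein, directly or in a larger complex. Both groups came from nuclear extracts of Kc167, a Drosophila line from embryos with features of blood cells, and no transgene, knockdown or treatment is named for either. The extract was precleared with preimmune serum on Protein A beads before the antiserum was added, and polyadenylated RNA was selected before library construction. No library of a mock precipitation was used here, so a rise with Rb5 was measured against input alone. The labels call the samples biological replicates of the line.

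Shep (alan shepherd) carries RNA recognition motifs and is known from flies as a neuronal protein that limits the activity of the gypsy insulator. Su(Hw) is the zinc-finger protein that binds the gypsy insulator's DNA. An RNA-binding protein of this kind can meet transcripts while they are made, spliced or exported.

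Genes appear in the counts under FlyBase identifiers. A RefSeq gene table paired 172 of the 16037 identifiers (1.07%) with a symbol, and 80 of those genes passed the filter on low counts. The genes described by name below are therefore a small sample of the transcripts that moved. None of the 38 marker genes listed for blood cells, neurons, glia, muscle, fat body and germline was among the paired symbols, so the labelled line was not checked against markers, and the mRNAs of Shep and Su(Hw) were not analysed here. Reads of overlapping genes cannot be told apart without the strand setting of the counting, which is not given in the sources used here.

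The precipitates held a different mixture of RNA from the inputs before any single gene was considered. Reads placed once in the genome but assigned to no gene may lie between genes or within them, which the counts do not show. They made up 22.03%, 22.7% and 31.4% of uniquely placed reads in Rb5 libraries 1, 2 and 3. In the 6 inputs the same share ran from 37.0% to 54.6%, with a median of 44.3%. Every precipitate lay below every input, and the means were 25.4% ± 5.21 (SD, n = 3) and 45.1% ± 7.29 (SD, n = 6; exact two-sided permutation p = 0.0238, 0.0278 after Benjamini-Hochberg adjustment over 7 measures). This is the smallest p that 3 libraries against 6 can give. The test, here and for the measures below, treats all 9 libraries as exchangeable and uses neither replicate number nor machine. With inputs 1 to 3 alone the exact permutation p was 0.1, the smallest for 3 against 3.

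Reads that fell on more than 1 annotated gene moved the opposite way. They held 2.07%, 2.21% and 1.963% of uniquely placed reads with Rb5 and from 0.911% to 1.26% in the inputs, again with no overlap (means 2.08% ± 0.126, n = 3, and 1.05% ± 0.135, n = 6; exact permutation p = 0.0238, adjusted 0.0278). Counts for reads placed at several positions did not separate the groups. Of all counts, with or without a gene, they made up 44.3% ± 3.70 (n = 3) with Rb5 and 42.9% ± 10.8 (n = 6) in the inputs (exact permutation p = 0.738). Input 6 alone stood at 64.1%. Such a read may be counted once per position, so this need not be a share of reads.

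A single gene filled much less of the precipitates. FBgn0085813, which has no symbol in the table used and was chosen after its values were seen, was the gene with the highest count in each of the 9 libraries. It held 6.05%, 3.37% and 3.09% of gene counts with Rb5 and between 13.7% and 30.1% in the inputs, with means of 4.17% ± 1.64 (n = 3) and 22.05% ± 5.74 (n = 6; exact permutation p = 0.0238, adjusted 0.0278). The next lowest library after the 3 precipitates was input 2.

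Gene counts were also spread over more genes, with FBgn0085813 kept in the totals unless stated. The most abundant genes needed to reach 50% of gene counts numbered 185, 175 and 190 in the precipitates and 59 to 83 in the inputs. With FBgn0085813 taken out the numbers were 192 to 222 with Rb5 (mean 207 ± 15.01, n = 3) and 119 to 178 in the inputs (mean 151.5 ± 24.3, n = 6), still with no overlap (exact permutation p = 0.0238, adjusted 0.0278). Genes at 10 CPM (counts scaled to a common library size, here without TMM) or more numbered 5631 ± 66.1 (n = 3) with Rb5 and 5029 ± 51.5 (n = 6) in the inputs (exact permutation p = 0.0238, adjusted 0.0278). Over all 6 measures that separated the groups, the precipitates thus stood outside the range of the inputs.

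**Figure D1:**
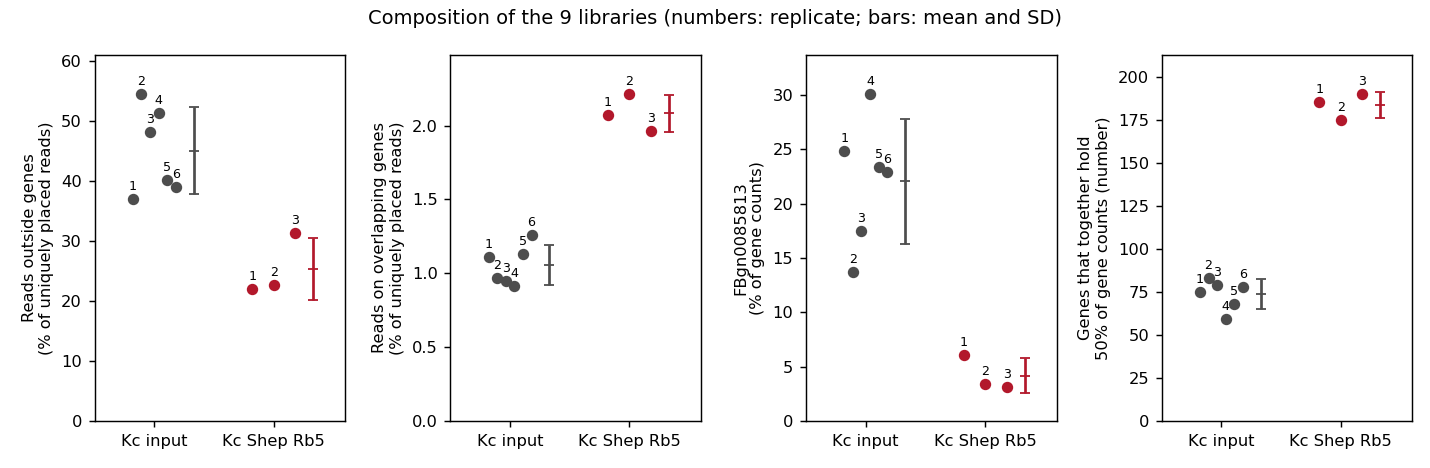
Each panel plots 1 measure per library (points, numbered by replicate) for the 6 Kc inputs (grey) and the 3 Kc Shep Rb5 precipitates (red), with mean and SD as bars. From left to right, the first y axes give reads assigned to no gene (labelled as outside genes) and reads on overlapping genes (% of uniquely placed reads). The others give FBgn0085813 (% of gene counts) and the number of genes that together hold 50% of gene counts. The precipitates lie below the inputs for reads assigned to no gene and FBgn0085813, and above them for the other measures.

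The lower share of reads assigned to no gene was not restricted to Rb5 among the Kc precipitates. It was 26.7% and 19.6% in the 2 Rb6 libraries, 8.86% and 15.8% in the 2 Gp01 libraries, and 21.9%, 24.1% and 22.8% in the 3 Su(Hw) libraries, all below the lowest Kc input. The share of FBgn0085813 was below the lowest Kc input (13.7%) in all of them too. It was 2.75% and 2.87% with Rb6, 6.17% and 6.68% with Gp01, and 9.46%, 8.71% and 4.24% with Su(Hw). Reads on overlapping genes lay above the highest Kc input (1.26%) in each. They held 2.09% and 2.59% with Rb6, 2.57% and 2.56% with Gp01, and 1.55%, 1.33% and 1.91% with Su(Hw). For the spread over genes, 50% of gene counts lay in 124 and 120 genes with Rb6, in 225 and 207 with Gp01 and in 46, 43 and 70 with Su(Hw), beside 175 to 190 with Rb5. Rb6 and Su(Hw) libraries thus needed fewer genes than any Rb5 library and Gp01 libraries more. These differences were not tested, since with 3 libraries against 3 or fewer an exact permutation test cannot give a p below 0.1.

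Gene counts per library were 12455645, 12498109 and 59066733 for Rb5 and ran from 8326741 to 44773161 for the inputs, so Rb5 3 and inputs 3 to 6 are the more deeply sequenced libraries. Machine and quality encoding differ as well. Rb5 1 and 2 and inputs 1 and 2 were run on a GA II, Rb5 3 and input 3 are the samples listed for GA II and HiSeq, inputs 4 and 5 come from a HiSeq with PHRED64 qualities and input 6 from a HiSeq with PHRED33 qualities. This sequencing class was a term of the gene test.

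Across the transcriptome, edgeR's quasi-likelihood test separated precipitate from input for 2968 of 9961 tested genes, or 29.8%, at an adjusted p under 0.05. A gene past that threshold is called here. Without Rb5 3, the most deeply sequenced precipitate, 1466 genes were called. Of the 2968 genes, 1488 were higher with Rb5 (14.9%) and 1480 lower (14.9%). At least 2-fold differences were found for 840 of the higher genes (8.43% of tested genes) and 694 of the lower genes (6.97%). The median log2 fold, Rb5 over input, was 1.06 among called rises, -0.97 among called falls and 0.08 over all tested genes.

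The even split rests on the scaling, which assumes that most genes keep their share. TMM scaling factors were 1.45, 1.44 and 1.37 for the precipitates and 0.94 to 0.99 for the inputs. With total gene counts as the library size instead, an alternative added after the data were seen, 3303 genes were called higher and 251 lower, so that 92.9% of calls were rises against 50.1% with TMM. The median log2 fold of all genes then moved up by 0.61. No spike-in was used here, so every fold is relative to the other RNAs of its library.

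The called genes agreed across libraries. In 918 of the 1488 rises every Rb5 library lay above every input, and in 1021 of the 1480 falls every Rb5 library lay below. Over all tested genes such separation was seen in 12.1% upward and 12.2% downward. Rb5 exceeded the input of the same replicate number in all 3 pairs for 1475 of the rises (99.1%) and was below it in all 3 for 1471 of the falls (99.4%), beside 34.6% and 30.3% of all tested genes. These counts describe genes chosen by the same libraries.

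Called rises together held 14.9% to 17.8% of gene counts in the precipitates and 5.15% to 6.61% in the inputs. Called falls held 23.3% to 29.7% and 48.7% to 56.9%. Among the falls, FBgn0085813 alone held 3.09% to 6.05% in the precipitates and 13.7% to 30.1% in the inputs. Both sets were chosen by their direction in these same libraries. Of all 16037 identifiers, taken before the filter on low counts, 20 were at 0 in all 6 inputs and counted in every precipitate. The other way round there were 6. For these numbers 1 count per library was enough, so they do not show RNAs confined to 1 side.

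**Figure D2:**
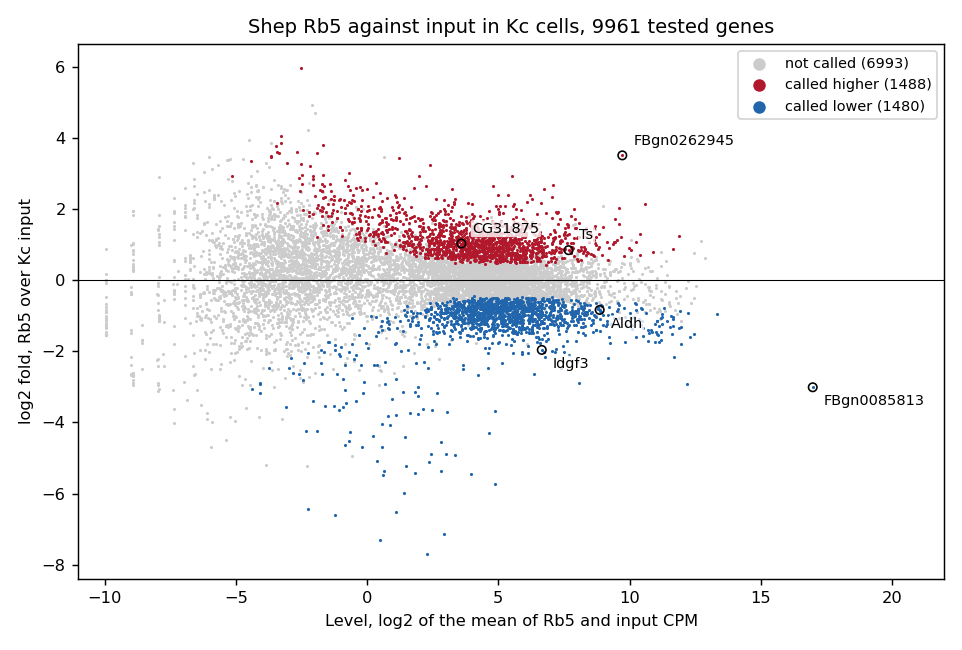
Log2 fold of Rb5 over Kc input (y axis) against the log2 of the mean of Rb5 and input CPM (x axis) for the 9961 tested genes, with called rises in red, called falls in blue and the rest in grey. FBgn0085813 lies far to the right of all other genes at a log2 fold of -3.01.

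Rises and falls were not evenly placed along the range of abundance. Below a mean level of 1 CPM, 122 of 2927 genes (4.17%) were called higher and 54 lower (1.84%). Between 1 and 10 CPM the counts were 386 (21.6%) and 200 (11.2%) of 1790 genes, and between 10 and 100 CPM 820 (19.9%) and 897 (21.8%) of 4115. At 100 CPM or more 160 of 1129 genes (14.2%) were higher and 329 (29.1%) lower. With TMM scaling, abundant RNAs were thus more often called lower than higher, and scarce RNAs the reverse.

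The median log2 fold followed the same order, at 0.29 and 0.24 in the 2 lower ranges, -0.02 between 10 and 100 CPM and -0.26 above. The median SE of a fold was 0.87 below 1 CPM and 0.22 to 0.31 in the other ranges, so the scarcest genes were measured least precisely. Level was taken from the compared libraries and scaling moves all ranges together, so the order between ranges is a description of these libraries.

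**Figure D3:**
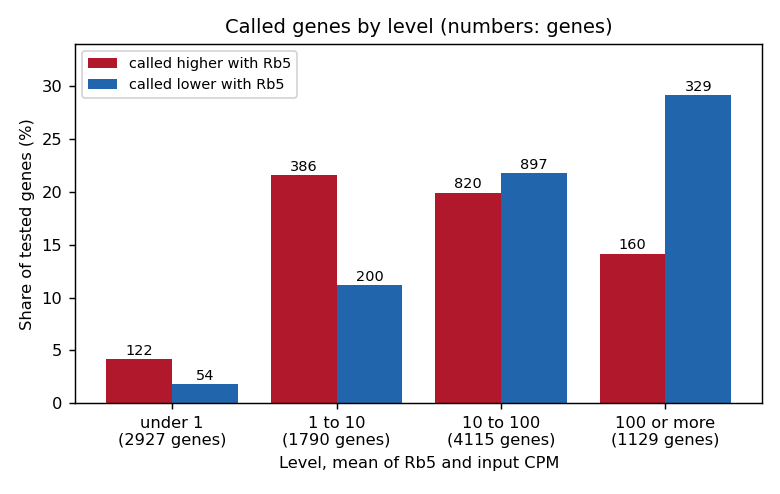
Share of tested genes called higher and called lower with Rb5 (y axis, %) in 4 ranges of mean CPM (x axis). The share called lower grows from 1.84% in the lowest range to 29.1% in the highest, and the share called higher is largest, at 21.6%, between 1 and 10 CPM.

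Of the 80 tested genes with a symbol, 9 were called higher and 7 lower (20%, beside 29.8% of all tested genes). Where the mean of the Rb5 and input levels was 10 CPM or more, 10 of 33 were called (30.3%), beside 42.1% of the 5244 tested genes at that level. Their median log2 fold at that level was -0.18, and -0.06 over all genes there. The 10 genes are taken in turn below, first those higher with Rb5. The naming rule required every Rb5 library on the same side of the inputs of its sequencing class. The direction of the differences given within GA II and within replicate 3 was therefore fixed by the choice of genes.

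CG31875 (FBgn0051875) gave the most even rise. Its level was 14.7, 15.3 and 16.9 CPM in Rb5 1 to 3, and 8.96, 5.73, 8.13, 8.97, 8.85 and 10.4 CPM in inputs 1 to 6. The precipitates lay above all inputs, with a log2 fold of 1.03 ± 0.20 (SE; edgeR adjusted p = 0.000885). Within the GA II libraries the difference of mean log2 CPM was 1.06, and between Rb5 3 and input 3 it was 1.05. With the Shep antiserum Gp01 CG31875 was instead called lower than input, at 3.89 ± 0.325 CPM (n = 2). Its log2 fold there was -1.27 ± 0.24 (edgeR adjusted p = 0.00119).

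Asx (FBgn0261823) encodes Additional sex combs, a Polycomb-group protein that works with a histone H2A deubiquitinase. It stood at 12.7, 14.7 and 12.5 CPM with Rb5 and at 5.66, 9.84, 6.68, 9.32, 5.95 and 7.95 CPM in the inputs, again without overlap. The log2 fold was 1.02 ± 0.35 (edgeR adjusted p = 0.0334), with 0.87 within GA II and 0.90 within replicate 3. The lowest precipitate was Rb5 3 and the highest input was input 2. The call ended without any 1 Rb5 library, without input 1 or 3 (edgeR adjusted p from 0.0558 to 0.103) and without the sequencing class (0.0612).

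Ts (FBgn0024920) encodes thymidylate synthase, which makes the thymidine nucleotide for DNA replication. Its level was 305, 190.3 and 287 CPM with Rb5, and the inputs ran from 110.2 to 198 CPM with a median of 138. Rb5 2 lay inside the range of the inputs, and the other precipitates above it. The log2 fold was 0.85 ± 0.26 (edgeR adjusted p = 0.0183), with 0.78 within GA II and 1.14 within replicate 3. Leaving out input 2, input 3, Rb5 1 or Rb5 3 ended the call (edgeR adjusted p from 0.0640 to 0.118).

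CG4570 (FBgn0037844) varied most among the precipitates of these rises. It stood at 243, 137 and 111 CPM with Rb5 and at 152, 80.9, 64.0, 88.4, 114 and 73.2 CPM in the inputs, so that the groups overlapped. Replicate 1 was highest on both sides, and each precipitate exceeded the input of its own number. The log2 fold was 0.77 ± 0.26 (edgeR adjusted p = 0.0294), with 0.72 within GA II and 0.79 within replicate 3. Leaving out input 2 or 3 or Rb5 1 or 3 ended the call (edgeR adjusted p from 0.0752 to 0.172), as did the fit without the class or with only the compared groups (0.0650 and 0.0841).

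Among the falls, Idgf3 (FBgn0020414) was the largest of the named genes. It encodes a secreted imaginal disc growth factor of the chitinase-like family. Its level was 30.7, 39.9 and 47.4 CPM with Rb5 and 114, 150.2, 177, 195, 186 and 153 CPM in the inputs. The lowest input was more than any precipitate, and the log2 fold was -1.96 ± 0.24 (edgeR adjusted p = 2.07e-05), with -1.90 both within GA II and within replicate 3.

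Prp31 and Mau2 were lower with Rb5 as well. Prp31 (FBgn0036487), a splicing factor of the U4/U6 small nuclear ribonucleoprotein, stood at 38.9, 35.1 and 41.8 CPM with Rb5 and between 60.0 and 99.96 CPM in the inputs (median 66.1). The groups did not overlap, and the log2 fold was -1.16 ± 0.21 (edgeR adjusted p = 0.000568). Mau2 (FBgn0038300), a partner of the cohesin loader Nipped-B, stood at 9.03, 7.16 and 5.06 CPM against 22.2, 13.2, 19.5, 19.5, 18.6 and 12.8 CPM. It too was lower in every precipitate than in any input, at a log2 fold of -1.36 ± 0.28 (edgeR adjusted p = 0.00125). Its difference was -1.08 within GA II and -1.94 within replicate 3, and for Prp31 the values were -1.05 and -1.26.

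pps (FBgn0082831), whose product binds the splicing protein Snf, was less clear. It stood at 12.3, 12.9 and 8.31 CPM with Rb5 and at 14.9, 41.2, 20.2, 12.5, 10.8 and 15.8 CPM in the inputs. The groups overlapped at inputs 4 and 5, and input 2 stood far above the others. The log2 fold was -1.02 ± 0.29 (edgeR adjusted p = 0.0125), and without input 2 it was -0.57 and not called (0.102). The call also ended without input 3, without Rb5 3 and without the class (edgeR adjusted p from 0.0606 to 0.0858).

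The other falls were CG5793 and a metabolic gene. CG5793 (FBgn0038858) stood at 21.4, 21.6 and 16.6 CPM with Rb5 and at 38.4, 54.4, 39.9, 24.2, 29.5 and 29.5 CPM in the inputs. The groups did not overlap, and the log2 fold was -1.18 ± 0.25 (edgeR adjusted p = 0.00154). Aldh (FBgn0012036), the mitochondrial aldehyde dehydrogenase that clears acetaldehyde, stood at 304, 237 and 488 CPM with Rb5 and at 565, 435, 817, 802, 466 and 448 CPM in the inputs. Rb5 3 lay among the lower inputs, while Rb5 1 and 2 were below all of them.

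The log2 fold of Aldh was -0.83 ± 0.23 (edgeR adjusted p = 0.0113), with -0.88 within GA II and -0.74 within replicate 3. Its call ended without Rb5 2, without Rb5 3 and without the class (edgeR adjusted p from 0.0536 to 0.0654). With total gene counts as library size the falls of Mau2, CG5793, Prp31, pps and Aldh shrank to log2 folds of -0.74, -0.57, -0.55, -0.42 and -0.22 and were no longer called, whereas Idgf3 stayed called. All 10 calls ended with the 4 GA II libraries alone, where edgeR called 0 genes after adjustment and 1786 at an unadjusted p under 0.05.

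**Figure D4:**
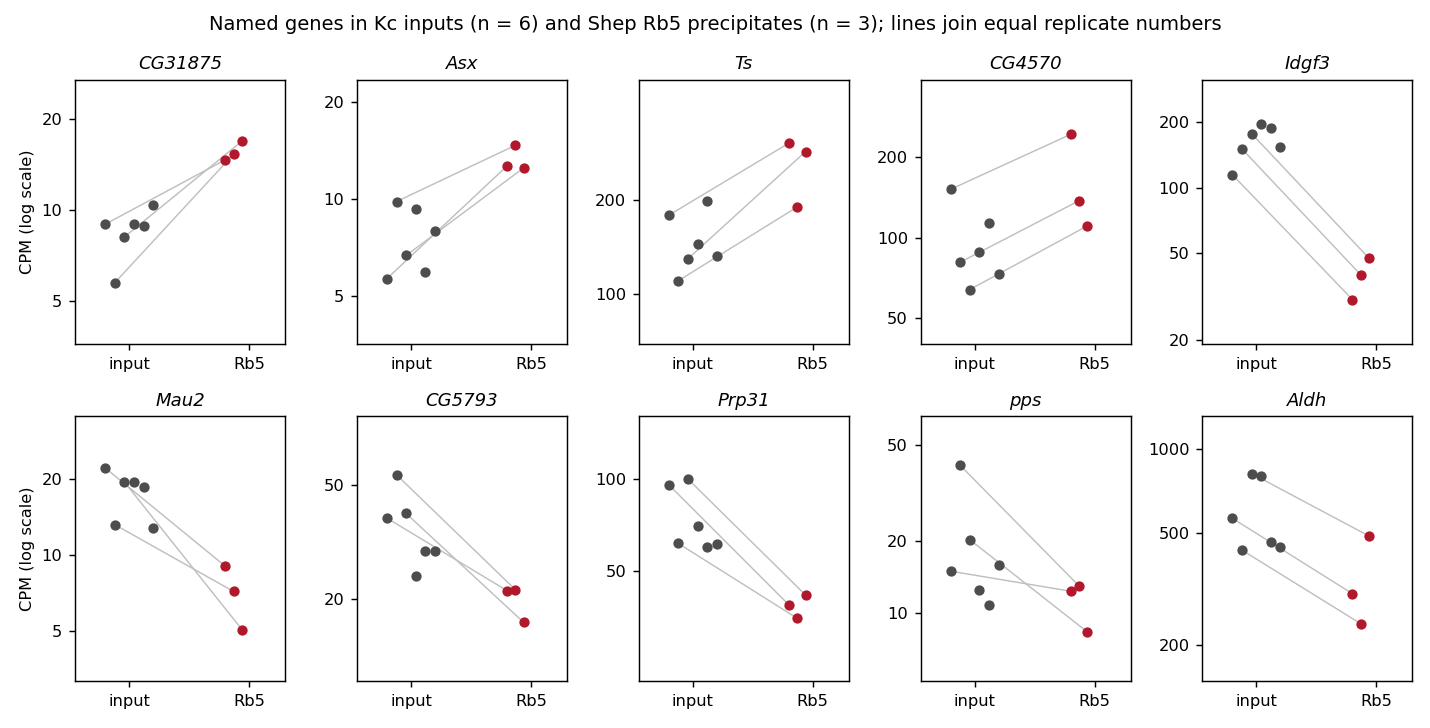
Levels in CPM (log axes) of the 10 named genes in the 6 Kc inputs (grey) and the 3 Rb5 precipitates (red), 1 panel per gene and 1 point per library. CG31875 and Asx lie above all inputs, Idgf3, Mau2, CG5793 and Prp31 below all inputs, and Ts, CG4570, pps and Aldh overlap.

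Another 6 genes with a symbol were called at levels under 10 CPM and are given after their values were seen. Acsf3, an acyl-CoA synthetase, stood at 3.55, 3.61 and 3.70 CPM with Rb5 and between 0.849 and 4.49 CPM in the inputs, which gave 1.01 as the log2 fold (edgeR adjusted p = 0.0237). bb8, a testis glutamate dehydrogenase, stood at 3.82, 1.83 and 1.46 CPM against 0.623 to 3.69 CPM, with 1.33 as the log2 fold (edgeR adjusted p = 0.00794). Both overlapped with the inputs, as all of these 6 genes did.

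CG10073, dyw and Porin2 had fitted log2 folds of 1.64, 1.16 and 2.32 (edgeR adjusted p = 0.0113, 0.0107 and 0.0253), and Mal-B2, a maltase gene, one of -2.07 (0.0175). The fold of dyw depends on the class term. Its mean with Rb5 was 1.15 ± 0.113 CPM (n = 3) and that of the inputs 1.58 ± 1.92 CPM (n = 6), where input 6 held 5.44 CPM, and without the class the fold was -0.53. Porin2 rested on 21, 2 and 14 counts in Rb5 1 to 3.

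When a block for replicate number replaced the class, the calls of dyw, Acsf3, bb8, Porin2 and Mal-B2 ended (edgeR adjusted p = 0.123, 0.0744, 0.0778, 0.181 and 0.126), and that of CG10073 did not. Without the class all 6 calls ended (edgeR adjusted p from 0.0919 to 0.652). Leaving out Rb5 3 ended the calls of dyw, Acsf3, Mal-B2 and Porin2, and leaving out Rb5 1 those of bb8 and Porin2 (edgeR adjusted p from 0.0510 to 0.209). Those of Acsf3 also ended without Rb5 2 or input 1 or 3, that of dyw without input 3 and that of Mal-B2 without input 2 (0.0521 to 0.1001).

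The 28 gene lists covered splicing, chromatin, translation, blood cell, neuronal and metabolic genes, and 8 of them had a tested member with a symbol. Most rest on 1 or a pair of genes, so each is described by its genes. Of the spliceosome list Prp31 fell and Pnn, the pinin homologue found at exon junctions, was not called. Pnn stood at 37.3, 32.0 and 41.8 CPM with Rb5 and between 41.9 and 61.5 CPM in the inputs, and its log2 fold was -0.48 ± 0.28 (edgeR adjusted p = 0.216, 95% interval -1.02 to 0.07). Every precipitate lay below every input, and Rb5 3 and input 4 were almost level.

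The blood cell list had 2 tested genes and 0 calls, beside calls for 29.8% of all tested genes. LanA, the laminin alpha chain that blood cells add to basement membranes, stood at 318, 468 and 547 CPM with Rb5 and between 412 and 735 CPM in the inputs (log2 fold -0.19 ± 0.21, edgeR adjusted p = 0.550). mfas, an adhesion gene of the fasciclin-domain family, stood at 18.1, 3.55 and 5.61 CPM against 6.97 to 36.8 CPM (log2 fold -1.25 ± 0.66, edgeR adjusted p = 0.181). Its libraries spread so widely that the 95% interval ran from -2.54 to 0.05.

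The other lists were the Idgf family (Idgf3, lower), the Polycomb group (Asx, higher) and the cell cycle (Ts, higher), each with 1 tested member. Of 4 tested long noncoding RNAs 0 were called, beside 29.8% of all tested genes, with a median log2 fold of 0.67. All but lncRNA:CR43887 lay under 1 CPM, where 4.17% of tested genes were called higher and 1.84% lower. Among them lncRNA:roX1, an RNA of the dosage compensation complex of males, had 1, 2 and 2 counts in Rb5 1 to 3, too few to show a difference from input. Against Su(Hw) lncRNA:roX1 was called lower with Rb5, at a log2 fold of -4.01 ± 0.99 (edgeR adjusted p = 0.00617). Its means there were 0.0637 ± 0.0438 CPM with Rb5 and 0.655 ± 0.514 CPM with Su(Hw) (n = 3 each). The 1 tested tRNA gene was not called.

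Another 23 symbol genes with a mean of the Rb5 and input levels of 10 CPM or more were not called. Their fitted log2 folds ran from -1.25 to 0.63, and the smallest edgeR adjusted p was 0.0613. That was Mccc2, a subunit of methylcrotonoyl-CoA carboxylase in leucine breakdown, at 30.9, 48.2 and 58.7 CPM with Rb5 and between 24.3 and 59.03 CPM in the inputs. lwr, the SUMO-conjugating enzyme gene, had a log2 fold of -0.26 ± 0.22 (edgeR adjusted p = 0.403) at 884 ± 111 CPM (n = 3) and 896 ± 224 CPM (n = 6). Both genes were picked with their values in view.

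The largest changes of the transcriptome lay among genes without a symbol here, and 2 in each direction were taken by the naming rule. FBgn0262945 stood at 267, 2357 and 1868 CPM with Rb5 and at 20.3, 329.7, 51.7, 38.1, 73.9 and 663 CPM in the inputs. Rb5 1 lay within the range of the inputs, although each precipitate exceeded the input of its number, and the log2 fold was 3.51 ± 0.92 (edgeR adjusted p = 0.0117). Without Rb5 2, Rb5 3 or input 3 and with only the compared groups it was not called (edgeR adjusted p from 0.0524 to 0.102).

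FBgn0035232 was steadier. It stood at 47.4, 76.5 and 101 CPM with Rb5 and at 3.96, 10.96, 10.9, 13.5, 25.4 and 35.1 CPM in the inputs, with no overlap. Its log2 fold was 2.94 ± 0.35 (edgeR adjusted p = 1.81e-05).

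Some RNAs were nearly lost from the precipitates. FBgn0263488 had 4, 3 and 4 counts in Rb5 1 to 3, or 0.222, 0.167 and 0.0495 CPM, and between 7.35 and 25.03 CPM in the inputs (log2 fold -7.15 ± 1.33, edgeR adjusted p = 0.00151). FBgn0083058 had 13, 15 and 31 counts, or 0.72, 0.833 and 0.383 CPM, and between 12.9 and 179 CPM in the inputs (log2 fold -5.74 ± 0.69, edgeR adjusted p = 5.16e-05). No input came near the precipitates for either gene. Both were also low with the other Kc antisera. FBgn0263488 averaged 0.849, 0.96 and 1.69 CPM with Su(Hw), Rb6 and Gp01. It was called lower than input with Su(Hw) and Rb6 (edgeR adjusted p = 0.0226 and 0.0256) and not with Gp01 (0.0767). FBgn0083058 averaged 3.04, 6.14 and 3.10 CPM and was called lower with each (0.0016, 0.000973 and 0.000673). FBgn0085813 itself had a log2 fold of -3.01 ± 0.49 (edgeR adjusted p = 0.000222).

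Whether a rise or fall differed from that with another antiserum was tested directly. Against the 3 Su(Hw) precipitates edgeR called 2645 genes (26.6% of tested genes), 1263 higher with Rb5 and 1382 lower. This split also rests on TMM scaling, since total gene counts as library size gave 4262 higher and 396 lower. Without Rb5 3, Su(Hw) 1 or Su(Hw) 2 the calls numbered 1193, 1480 and 1365. Among the genes named above, CG31875 was higher with Rb5 than with Su(Hw) by a log2 difference of 1.28 ± 0.23 (edgeR adjusted p = 0.000531), Ts by 1.48 ± 0.28 (0.000999) and CG4570 by 1.02 ± 0.29 (0.0140). The mean levels with Su(Hw) were 6.99 ± 1.21, 99.2 ± 1.40 and 79.6 ± 23.1 CPM (n = 3 each), below the lowest Rb5 library of each gene. Asx stood at 9.33 ± 5.26 CPM with Su(Hw), and its difference of 0.62 ± 0.40 was not called (edgeR adjusted p = 0.270).

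Idgf3 and CG5793 were lower with Rb5 than with Su(Hw), at log2 folds of -0.74 ± 0.25 and -1.66 ± 0.26 (edgeR adjusted p = 0.0332 and 0.000214). Their mean levels with Su(Hw) were 71.6 ± 8.23 and 53.1 ± 16.7 CPM (n = 3). For Mau2, Prp31, pps and Aldh the differences were -0.22 ± 0.31, -0.57 ± 0.23, -0.86 ± 0.33 and -0.19 ± 0.25 (edgeR adjusted p = 0.633, 0.0678, 0.0598 and 0.621), so a difference between the 2 antisera was not shown for them. FBgn0085813 was lower with Rb5 at a log2 difference of -1.87 (edgeR adjusted p = 0.00786), and FBgn0035232 higher by 1.82 (0.0014).

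Few genes were called different between Rb5 and another Shep antiserum, Rb6. Between Rb5 and the 2 Rb6 precipitates edgeR called 5 genes (0.0502% of tested genes), 2 higher with Rb5 and 3 lower, with 805 at an unadjusted p under 0.05, and 0 of the genes with a symbol. With the replicate block 88 genes were called, and without Rb5 3, Rb6 1 or Rb6 2 the calls numbered 1, 2 and 1. Rb5 and Rb6 share no sequencing class, so the comparison is linked through the inputs and the other precipitates. Few calls with 2 Rb6 libraries do not show that the antisera act alike.

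The 5 genes include some that Rb5 and Rb6 moved to opposite sides of input. FBgn0039210 stood at 9.20 ± 1.80 CPM with Rb5 (n = 3), 60.5 ± 8.65 CPM with Rb6 (n = 2) and 21.5 ± 10.5 CPM in the inputs (n = 6). Its log2 fold of Rb5 over Rb6 was -3.60 ± 0.37 (edgeR adjusted p = 8.33e-05). That fold is fitted with the class term and is larger in size than these means give. FBgn0029688 stood at 29.7 ± 3.84 CPM with Rb5, 8.79 ± 1.23 with Rb6 and 14.98 ± 3.10 in the inputs, with 1.99 ± 0.31 between the antisera (0.0082). FBgn0023506, at -2.05 ± 0.31, was likewise below input with Rb5 and above it with Rb6, at 14.0 ± 2.76, 50.8 ± 25.7 and 25.4 ± 5.76 CPM.

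The remaining genes were FBgn0003638 and FBgn0261794, at log2 folds of Rb5 over Rb6 of -2.12 ± 0.32 and 1.71 ± 0.30 (edgeR adjusted p = 0.0082 and 0.0289). Neither was called for Rb5 against input. For the 10 named genes the difference between the antisera ran from -0.45 ± 0.35 (CG5793) to 0.86 ± 0.35 (Aldh), and none was called, with the smallest edgeR adjusted p at 0.516. With Gp01 against input, of these genes only CG31875 was called, as lower (smallest other edgeR adjusted p = 0.0858). Idgf3, Aldh, Ts and Asx were at log2 folds of -0.54, -0.40, -0.20 and -0.12 there. Mau2, CG4570, pps, CG5793 and Prp31 were at 0.07, 0.11, 0.46, 0.53 and 0.58. Rb5 was not tested directly against Gp01.

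Rb5 was also used in BG3, a line from the larval central nervous system, with 2 precipitates and 2 inputs that share no library with the Kc groups. There edgeR called 620 genes higher (6.22%) and 474 lower (4.76%). In both lines 406 genes were called higher, which is 27.3% of the Kc rises and 65.5% of the BG3 rises, and 388 were called lower, 26.2% of the Kc falls and 81.9% of the BG3 falls. Opposite calls were few, with 2 genes higher in Kc and lower in BG3 and 5 the other way.

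Genes called in Kc leaned the same way in BG3 whether or not they were called there. The median BG3 log2 fold was 0.71 for the Kc rises, of which 90.5% were above 0, and -0.64 for the Kc falls, of which 11.1% were above 0. Over all tested genes the median was 0.17 and 57.5% were above 0. All fits share 1 estimate of spread and the class term, and inputs of the lines differ in which RNAs they contain.

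Of the named genes with a symbol only Aldh was also called in BG3, at a log2 fold of -0.94 ± 0.30 (edgeR adjusted p = 0.0461). In BG3 the level of Idgf3 was 0.986 CPM with Rb5 and 1.99 CPM in input, with a log2 fold of -1.03 ± 0.33 (0.0505), and Asx one of 1.41 ± 0.46 (0.0543). Mau2, Prp31, CG5793 and CG4570 lay on the Kc side of 0 at -0.99, -0.76, -0.51 and 0.83, without a call. CG31875 was at 0.36 ± 0.25, Ts at 0.03 ± 0.33 and pps at 0.46 ± 0.38. FBgn0085813, FBgn0083058 and FBgn0035232 were also called in BG3, on the same side as in Kc. Their log2 folds there were -3.07, -3.69 and 1.35 (edgeR adjusted p = 0.00556, 0.00737 and 0.0433). FBgn0263488 and FBgn0262945 were not called there, at -2.56 and 1.96 (0.175 and 0.277).

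**Figure D5:**
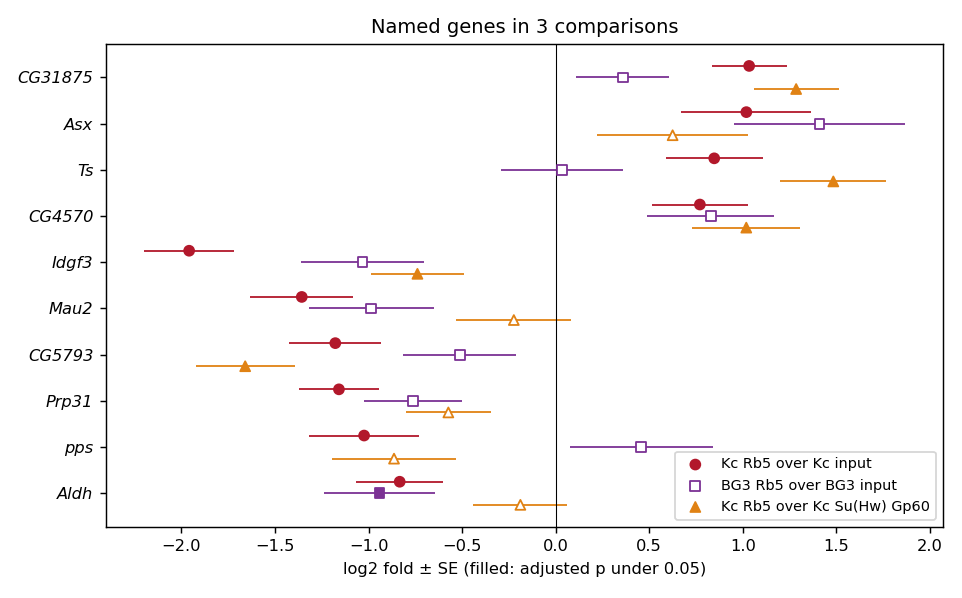
Log2 folds ± SE (x axis) of the 10 named genes (y axis) for Kc Rb5 over Kc input (red circles), BG3 Rb5 over BG3 input (purple squares) and Kc Rb5 over Kc Su(Hw) Gp60 (orange triangles), filled where the adjusted p is under 0.05. For these genes only the point of Aldh is filled in BG3, and against Su(Hw) those of CG31875, Ts, CG4570, Idgf3 and CG5793.

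The difference between the lines was itself tested. Rb5 over input differed between Kc and BG3 for 9 genes (0.0904% of tested genes), 6 with the higher fold in Kc and 3 with the lower, beside 1026 at an unadjusted p under 0.05, and 0 of them had a symbol. With the replicate block 3 genes were called, and without the class 0 were. The folds here are fitted with the class term and can differ from ratios of the mean CPM shown. Leaving out Kc Rb5 2 or 3 gave 4 and 0 calls, BG3 Rb5 1 gave 0, BG3 input 1 or 2 gave 1 and 3, and Kc input 1, 3 or 6 gave 3, 1 and 5. FBgn0036891 rose from 1.70 ± 1.02 CPM (n = 6) to 6.12 ± 1.51 CPM (n = 3) in Kc and stood at 61.7 ± 1.91 and 58.8 ± 0.291 CPM (n = 2 each) in BG3, a difference of log2 folds of 2.99 ± 0.40 (edgeR adjusted p = 0.00378).

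FBgn0052423 did the reverse. It stood at 193 ± 127 CPM in the Kc inputs and 174 ± 15.97 CPM with Kc Rb5, and at 37.6 ± 17.4 and 368 ± 14.2 CPM in BG3, a difference of -3.72 ± 0.66 (edgeR adjusted p = 0.0361). For the 10 named genes the difference was not called, which does not show that the lines act alike. The closest to a difference was pps, at -1.48 ± 0.48 (edgeR adjusted p = 0.284).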

How the data were processed

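The authors deposited 1 file of raw counts by gene identifier per sample. Per the submitters' processing notes, the build was dm3 and the tools HTSeq, DESeq, TopHat2, Bowtie2 and cutadapt (1.2.1). The sources used here give neither annotation release nor strand setting. Lines for reads assigned to no gene, to several genes or to several positions are not gene counts. They stayed out of library sizes and tests and were used only as library measures.

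The members, gene lists, naming rule and tests were chosen with earlier results of these data known. Genes were kept by edgeR's filter (minimum count 10, minimum total 15), which left 9961. The gene test was the robust quasi-likelihood test of edgeR 4.0.16 under R 4.3.3 (with limma 3.58.1), TMM scaling, 1 mean per group and sequencing class as covariate, over all 22 distinct libraries. P-values were adjusted by Benjamini-Hochberg over all tested genes, at 0.05. Folds are log2 ± SE, and CPM are TMM-scaled except in the count of genes at 10 CPM or more. Differences within a class are of log2 CPM with a prior count of 2. The fit was tested on simulated data. The p-values rest on the labels' statement that samples are biological replicates. Library precision follows from the counts given with the results.

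Named genes are called genes with a symbol, at 10 CPM or more in Rb5 or input on average and with every Rb5 library on the same side of the inputs of its class, up to 12 in each direction, and up to 3 called members per list. The difference of log2 CPM within GA II also had to have the sign of the fold. At most 2 identifiers without a symbol were taken each way. Symbols came from RefSeq (assembly GCF_000001215.4), which served for names alone.

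Library measures were compared by exact two-sided permutation tests over libraries, which used neither the pairing by replicate number nor the class. Replicate numbers were taken to pair precipitate and input, because deviations from the group means of same-numbered libraries correlated at r = 0.87, 0.61 and 0.50 over 5244 genes (not independent) and other pairs at -0.70 to 0.24. The alternatives were RLE scaling, DESeq2 1.42.0, no filter, no class, a replicate block, only the compared groups, GA II libraries only, and each library left out. Total gene counts as library size, leaving out FBgn0085813, and all alternatives of the library measures were added after the data were seen.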

Additional observations from a re-analysis of the deposited data

Results flagged for a closer look

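In 4 of 33 groups of 6 Kc inputs examined, 1 input stood far from the others (Dixon's criterion, which chance meets in about 1 in 20 groups). For pps the highest input was input 2, at 41.2 CPM, and the next was 20.2 CPM. For FBgn0083058 input 6 held 179 CPM and the next input 57.6 CPM. For dyw input 6 held 5.44 CPM and the next 1.34 CPM. Counts for reads placed at several positions made up 64.1% of all counts, with or without a gene, in input 6 and 42.5% in the next input. Input 6 is the only Kc input with PHRED33 qualities, so library and class cannot be told apart in it.

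Rb5 over input differed between Kc and BG3 for 9 genes in edgeR's test of that difference, none with a symbol. Besides the 2 described above, FBgn0051658 stood at 42.4 ± 26.6 CPM in the Kc inputs (n = 6) and 106 ± 5.61 CPM with Kc Rb5 (n = 3). In BG3 it stood at 58.1 ± 3.49 and 72.6 ± 21.3 CPM (n = 2 each). The fitted difference of log2 folds was 2.07 ± 0.36 (edgeR adjusted p = 0.0316). That difference includes the class term and is larger than these means give. FBgn0039886 had the largest difference upward, 3.98 ± 0.67 (edgeR adjusted p = 0.0276), from levels under 10 CPM on both sides in Kc.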

How the results depend on the processing

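The 2968 calls of Rb5 against input stayed within 1.5 times that number with RLE scaling (3009), DESeq2 (3422), no filter (3046), no class (2420), only the compared groups (2450), the replicate block over all libraries (2505) or over replicates 1 to 3 (4379), without FBgn0085813 (2990) and with total gene counts (3554). It was 0 with GA II libraries only (4 libraries) and 1466 to 2889 with 1 library left out, lowest without Rb5 3. Against Su(Hw) the 2645 calls became 1665 without class, 1557 with only the compared groups, 4658 with total gene counts and 1193 to 2504 with 1 library left out. The 5 calls against Rb6 became 60 with DESeq2, 86 with no filter, 30 without class, 88 with the replicate block, 0 with only the compared groups (376 at an unadjusted p under 0.05) and 1 to 4 with 1 library left out. The 9 calls between the lines became 124, 109, 0 (577 unadjusted), 3 and 4 in the same order of settings, 3 with total gene counts and 0 to 8 with 1 library left out. The causes were not tested.

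Directions turned for dyw without class (-0.53), for LanA, lwr and Pnn with total gene counts (0.42, 0.35 and 0.13), and for lncRNA:roX1 without class (0.53), with the replicate block (0.31), with total gene counts (0.0014) and without Rb5 3 (0.44, range -1.38 to 0.44 with 1 library left out). The replicate block changed no call of the 10 named genes. With only inputs 1 to 3 the library measures differed by -21.2 (reads assigned to no gene), 1.07 (overlapping genes) and -14.5 (FBgn0085813). The others differed by 104 and 64.0 (genes to 50% with and without FBgn0085813) and 623 (genes at 10 CPM). Each was at the smallest exact permutation p of 3 against 3, 0.1 (adjusted 0.117).

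With 1 library left out they ran from -22.7 to -17.8, from 0.962 to 1.09, from -19.5 to -16.3, from 106 to 114, from 48.5 to 63.5 and from 583 to 640.2. Without any 1 precipitate their adjusted p was 0.0833, since 2 libraries against 6 allow no smaller one. The difference in reads placed at several positions ran from -0.531 (without Rb5 2) to 5.70, with -0.0998 without input 4.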
